A study of Mus musculus with 25 samples.

Results

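The chemokines and chemokine receptors of the mouse were followed in skin stem cells sorted from unwounded skin, from wounded skin and from grafted skin tumours. Members were taken by symbol from the series' gene count table: the Ccl, Cxcl, Cx3cl1 and Xcl1 ligands, the Ccr, Cxcr, Cx3cr1 and Xcr1 receptors, and the atypical receptors Ackr1 to Ackr4 and Ccrl2. A member also needed at least 10 counts in at least 1 of the 21 RNA libraries. The symbols matched 61 of the 24061 genes, and 56 had enough counts. The 5 left out were Ccl19, with a highest count of 5, and Ccl21a, Ccl21b, Ccl26 and Ccl27b, with no count. The members closest to the minimum were Cxcl15, with a highest count of 20, and Cxcl11, with 30. The 56 members comprised 6 homeostatic CC ligands, 12 inflammatory CC ligands, 5 CXC ligands with the ELR motif, 8 CXC ligands without it, 2 ligands of the CX3C and XC classes, 18 receptors and 5 atypical receptors. Of the members, 38 lie on chromosomes 5, 9 and 11, and 19 have an annotated span that overlaps another gene. The strand setting of the counting is not given in the sources used here, so reads of an overlapping pair such as Ackr4 and Acad11, or Cxcl10 and Art3, may not be separable.

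Chemokines are small secreted proteins that guide leukocytes along concentration gradients by binding G protein-coupled receptors on them. Homeostatic chemokines are made in resting tissue, whereas inflammatory chemokines are induced by injury, infection and cytokines, often through NF-kB. CXC ligands with the ELR motif attract neutrophils through Cxcr2, whereas Cxcl9 and Cxcl10 are induced by interferon and attract T cells through Cxcr3. Atypical receptors bind chemokines without activating G proteins, and most of them clear or hold ligand. Keratinocytes of resting skin are known sources of Cxcl14 and Ccl27a.

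The study compared hair follicle stem cells (HFSC) and epidermal stem cells (EpdSC), at rest, after wounding and as stem cells of a squamous cell carcinoma driven by oncogenic HRas, by RNA-seq of sorted cells and by ATAC-seq, which maps open chromatin. The RNA came from female B6 mice at postnatal day 60, in 3 sets of libraries that the labels mark CL, BK and DS without explaining the letters. In set CL, all from lineage negative, integrin alpha 6 high cells, there were 2 libraries (A and B) each of HFSC (CD34 positive, Sca1 negative), EpdSC (CD34 negative, Sca1 positive), wounded HFSC lineage and wounded EpdSC. Wounded HFSC lineage cells carried the YFP mark that Sox9CreER switches on at R26, and wounded EpdSC lacked it, so the lineage assignment after wounding rests on that mark. Set BK held 5 libraries, with HFSC and EpdSC in duplicate and wounded EpdSC once, the last sorted as lineage negative and integrin alpha 6 high with no YFP gate named. The count column of that wounded library alone carries the further tag A5pos3, which the labels do not explain. Set DS held 6 tumour libraries of GFP positive grafted cells, 1 from the integrin alpha 6 high gate and 1 from the low gate of each genotype (HRas, HRas TbrKO, TbrKO), beside single libraries of Tbr HFSC and of Tbr EpdSC. The labels do not spell out Tbr, and they do not give the wound interval or state whether a group draws on separate animals. The p-values below therefore measure only the spread between these libraries, which may be technical.

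The libraries held 14216472 to 36425082 counts, which sets the counting error of a gene with few counts. Levels are CPM, counts scaled to library size with TMM factors over the 21 libraries. Because no gene lengths were used, a level is compared only between libraries of the same gene. Every fold change is a log2 difference ± SE from edgeR's quasi-likelihood test, and a member is called changed at a Benjamini-Hochberg adjusted p under 0.05 over all genes tested in that set. The keratinocyte markers were present in every library, with a sum over 5 genes of 19819 to 147830 CPM. Hras itself stood at 253, 217, 276 and 214 CPM in the 4 HRas and HRas TbrKO libraries and at 138 and 154 CPM in the 2 TbrKO libraries. It stood at 158 and 133 CPM in Tbr HFSC and Tbr EpdSC and at 184 to 666 CPM in sets CL and BK. The level of Hras thus did not set the HRas tumours apart from all other libraries. Because the labels do not name the gene deleted in TbrKO, that deletion was not checked.

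**Figure D1:**
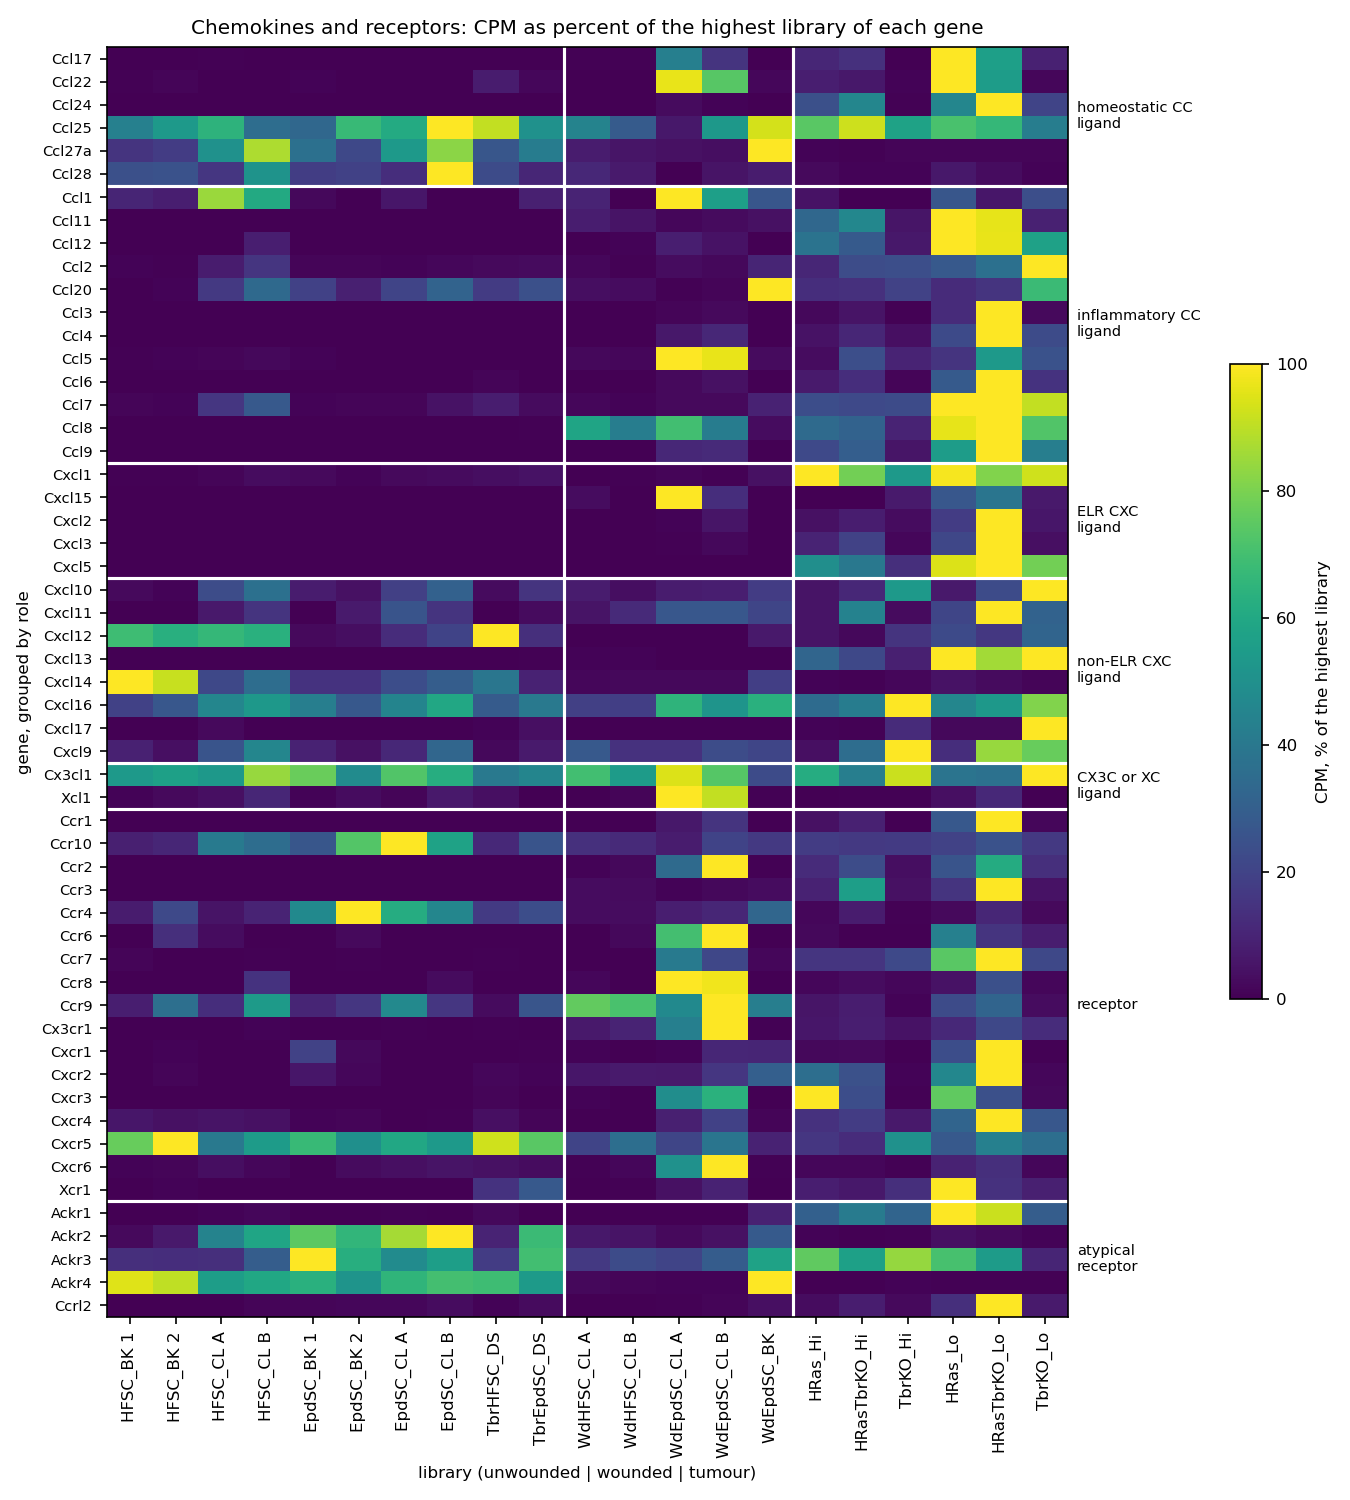
Each row is 1 of 55 members, grouped by role, and each column is 1 of the 21 RNA libraries. Colour gives the CPM as a percentage of that member's highest library. Cxcl14, Ackr4 and Ccl27a are bright in unwounded skin, many inflammatory ligands and receptors are bright in the wounded EpdSC of set CL, and 18 members have their highest level in the HRas TbrKO low gate library.

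In unwounded skin, Cxcl12 and its receptor Cxcr4 were higher in HFSC than in EpdSC in both sets. Cxcl12 attracts and retains Cxcr4-bearing cells. Cxcl12 stood at 248 and 237 CPM in the HFSC of set CL and at 47.1 and 75.5 CPM in its EpdSC, a difference of 1.98 ± 0.34 (edgeR adjusted p = 0.00921). In set BK it stood at 257 and 235 CPM in HFSC and at 9.36 and 13.4 CPM in EpdSC, a difference of 4.42 ± 0.37 (edgeR adjusted p = 0.00317). Each HFSC library was thus above each EpdSC library. Cxcr4 stood at 6.51 and 5.504 CPM in the HFSC of set CL against 0.419 and 0.578 CPM in EpdSC, a difference of 3.60 ± 0.50 (edgeR adjusted p = 0.00369). In set BK the Cxcr4 levels were 7.46 and 5.75 CPM and 1.10 and 1.72 CPM, a difference of 2.22 ± 0.46 (edgeR adjusted p = 0.027). In sorted bulk libraries such as these, fewer cells of a type and less RNA per cell cannot be told apart. The summed fibroblast markers moved with Cxcl12: they were 36.9 to 39.6 CPM in HFSC and 2.51 to 2.85 CPM in EpdSC of set CL, and 90.7 to 92.7 CPM against 1.16 to 3.31 CPM in set BK. Of the 6 fibroblast markers, 2 were higher in HFSC in set CL, and 3 of the 5 tested were higher in set BK. Most of the sum in HFSC was Col1a2 and Col1a1. In set CL, Col1a2 stood at 31.5 and 31.1 CPM in HFSC and 0.587 and 0.964 CPM in EpdSC. Col3a1, Dcn and Lum overlapped between HFSC and EpdSC there, at 1.42 CPM or less, so the sum speaks mainly for collagen genes. The part of fibroblasts in the result was not tested.

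In set CL, 5 of the 46 members tested differed between HFSC and EpdSC, 4 higher and 1 lower in HFSC, which is 10.9% beside 10.8% of all genes tested (7.19% higher and 3.63% lower). The other called members were the monocyte attractants Ccl2 and Ccl7, and Ccr4, the receptor of Ccl17 and Ccl22. Ccl2 stood at 8.22 and 16.7 CPM in HFSC and 1.09 and 1.86 CPM in EpdSC, a difference of 3.09 ± 0.56 (edgeR adjusted p = 0.0113). Ccl7 differed by 2.78 ± 0.61 (edgeR adjusted p = 0.0242). Ccr4 was the exception in direction, at 1.89 and 3.502 CPM in HFSC and 22.0 and 16.3 CPM in EpdSC, a difference of -2.84 ± 0.38 (edgeR adjusted p = 0.00324). The antigen presenting markers were 86.4 to 208 CPM in HFSC and 48.7 to 66.0 CPM in EpdSC, with 1 of 5 called higher. The summed T cell markers were 10.03 to 27.8 CPM in HFSC and 58.2 to 80.8 CPM in EpdSC, with 1 of 4 called lower. Most of that sum was Thy1, at 8.2 and 21.2 CPM in HFSC and 79.3 and 57.1 CPM in EpdSC. Cd3e, Cd3g and Cd3d went the other way, each higher in both HFSC libraries than in both EpdSC libraries, at 3.73 CPM or less. Of 4 melanocyte markers, 2 were called higher in HFSC. The part of such cells was not tested. Without the A library of EpdSC only 1 member was called. The median difference of the members was 0.04, or 0 with genes at no count in a group set at their bound, beside -0.02 for all genes.

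In set BK, 8 of the 33 members tested differed, 3 higher and 5 lower in HFSC, which is 24.2% beside 14.4% of all genes (7.91% higher and 6.47% lower). Cxcl14, a ligand made by resting epithelia, stood at 4291 and 3938 CPM in HFSC and 627 and 626 CPM in EpdSC, a difference of 2.70 ± 0.32 (edgeR adjusted p = 0.00555). In set CL the levels of Cxcl14 were 929 and 1542 CPM in HFSC and 1015 and 1264 CPM in EpdSC, and the groups overlapped. The members lower in HFSC of set BK were Ccl20 (-4.70 ± 0.71), Ackr2 (-3.90 ± 0.56), Cxcl2 (-3.55 ± 0.88), Ackr3 (-2.63 ± 0.36) and Ccrl2 (-2.46 ± 0.35). Cxcl2 had only 1 and 1 counts in HFSC and 13 and 8 in EpdSC, so the size of its difference depends on the prior count of the fit. Ccl20 attracts Ccr6-bearing dendritic and T cells, Ackr2 clears inflammatory CC ligands, and Ackr3 takes up Cxcl12. Ackr2 stood at 0.772 and 2.05 CPM in HFSC and 22.5 and 19.8 CPM in EpdSC of set BK, and at 13.4 and 17.7 CPM and 26.0 and 30.1 CPM in set CL. The HFSC of set CL were thus closer to EpdSC in Ackr2. The sum of 12 immediate early and dissociation genes, such as Fos and Jun, was 4710 to 6447 CPM in the HFSC of set BK and 28390 to 33962 CPM in its EpdSC, and 9 of the 12 were lower in HFSC. The part of this in the result was not tested.

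The difference between the sets was itself tested over the 8 unwounded libraries, a comparison added after these values were seen. The HFSC against EpdSC difference of set BK departed from that of set CL for 5 of 28 members tested, 17.9% beside 2.32% of all genes. The 2 higher were Cxcl12 (2.42 ± 0.42) and Cxcl14 (2.56 ± 0.44), beside 0.335% of all genes, and the 3 lower were Ackr2 (-3.08 ± 0.58), Ccl2 (-3.91 ± 0.69) and Ccl20 (-4.68 ± 0.89), beside 1.99% of all genes. No member was called when either HFSC library of set BK, the B library of HFSC or either EpdSC library of set CL was left out, and 1 was called without the A library of HFSC. The labels do not say what separates the sets, and set and batch cannot be told apart.

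Ackr4, which takes up Ccl19, Ccl21 and Ccl25, was not called between HFSC and EpdSC in either set. It stood at 261 and 280.1 CPM in HFSC and 307 and 329.7 CPM in EpdSC of set CL, at 447 and 425 CPM and 299 and 242 CPM in set BK, and at 324 and 255 CPM in Tbr HFSC and Tbr EpdSC. Its fitted HFSC against EpdSC difference was -0.24 ± 0.20 in set CL (edgeR adjusted p = 0.575) and 0.68 ± 0.30 in set BK (edgeR adjusted p = 0.196). A p above the threshold does not show equal levels. Ackr4 lies at chr9:104097682-104126643 on the minus strand of GRCm38.p6, the RefSeq release of mm10.

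The bases before the Cxcl14 start are shown because Cxcl14 fell in the wounded cells of set CL and in the tumours. They are chr13:56296552-56296801 on the minus strand of GRCm38.p6, from RefSeq. They run 5′ to 3′ in the direction of transcription, with the last base next to the start site used here. The annotated span of Cxcl14, chr13:56288643-56296811, takes in all of these letters. They may therefore not lie upstream of every Cxcl14 transcript. Capitals mark matches to any of 3 motifs searched on both strands: the kappaB site bound by NF-kB, the AP-1 site TGANTCA, and an interferon response-like pattern of 2 copies of GAAA separated by any 2 bases. The 1 match here is to the last pattern and begins 172 bases before the start. A match is a description of letters, not a bound site.
Cxcl14: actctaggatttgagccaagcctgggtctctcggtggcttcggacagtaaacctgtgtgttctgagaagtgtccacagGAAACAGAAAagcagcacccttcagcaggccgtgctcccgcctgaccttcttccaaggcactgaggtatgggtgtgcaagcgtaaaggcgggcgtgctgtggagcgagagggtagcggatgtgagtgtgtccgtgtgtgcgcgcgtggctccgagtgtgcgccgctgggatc

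After wounding, Cxcl14, Ackr4, Cxcl12 and Ccl27a fell in both lineages of set CL. Cxcl14 stood at 75.3 and 92.0 CPM in the wounded HFSC lineage, against 929 and 1542 CPM in HFSC, and fell by 3.89 ± 0.31 (edgeR adjusted p = 9.64e-05). It stood at 97.2 and 92.7 CPM in wounded EpdSC, against 1015 and 1264 CPM in EpdSC, and fell by 3.60 ± 0.31 (edgeR adjusted p = 9.65e-05). The wounded libraries lay below every unwounded library of the set, and the 2 wounded groups lay close together. Ackr4 stood at 9.54 and 6.71 CPM in the wounded HFSC lineage, a difference of -5.07 ± 0.24 (edgeR adjusted p = 2.16e-05). In wounded EpdSC it stood at 4.68 and 4.45 CPM, a difference of -6.14 ± 0.25 (edgeR adjusted p = 1.32e-05). Cxcl12 was at 1.11 and 1.29 CPM in the wounded HFSC lineage and 1.19 and 0.479 CPM in wounded EpdSC, with differences of -7.66 ± 0.45 and -6.22 ± 0.44 (edgeR adjusted p = 3.71e-05 and 4.25e-05). Ccl27a, which attracts Ccr10-bearing skin T cells, fell from 116 and 202 CPM to 17.1 and 12.7 CPM in the HFSC lineage and from 124 and 189.8 CPM to 10.1 and 8.33 CPM in EpdSC (edgeR adjusted p = 2.90e-04 and 1.23e-04).

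Ackr2, Ccl20, Ccr4, Cxcl1 and Cxcl10 also fell in both lineages. The differences of Ackr2 were -3.13 ± 0.33 in the HFSC lineage and -4.76 ± 0.36 in EpdSC. Those of Ccl20 were -2.87 ± 0.51 and -4.70 ± 0.59. Cxcl10 stood at 18.1 and 28.8 CPM in HFSC and 5.96 and 2.96 CPM after wounding, and at 14.8 and 24.4 CPM in EpdSC and 5.92 and 6.71 CPM after wounding. The members called only in the HFSC lineage to fall were Ccl2, Ccl7, Cxcr4, Ccrl2, Cxcl16, Ccl1 and Xcl1, and those called only in EpdSC to fall were Ackr3, Ccl28 and Ccr10. Of these 10, the test of the lineage difference given further on was passed by Ccl2, Ccl7, Cxcr4, Cxcl16, Ccl1 and Xcl1. The immediate early and dissociation genes moved with these falls: their sum went from between 24008 and 40580 CPM in HFSC to between 786 and 823 CPM in the wounded HFSC lineage, where 11 of 12 were lower. In EpdSC it went from between 41857 and 46356 CPM to between 1234 and 1420 CPM, with 9 of 12 lower and 2 higher. Their part in the result was not tested.

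Across the members, 26 of the 46 tested changed in the wounded HFSC lineage, 10 higher and 16 lower, which is 56.5% beside 46.1% of all genes (21.4% higher and 24.7% lower). In wounded EpdSC, 37 of 46 changed, 25 higher and 12 lower, which is 80.4% beside 58.4% of all genes (30.2% higher and 28.2% lower). The median difference was -0.72 in the HFSC lineage, beside -0.10 for all genes. In EpdSC it was 4.50, or 2.48 with members at no count in a group set at their bound, beside -0.04 for all genes. The comparisons of set CL share libraries, and their values stand side by side without being independent. Members enter these tests through the group in which they are high, so the shares describe the tested members and not the family.

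**Figure D2:**
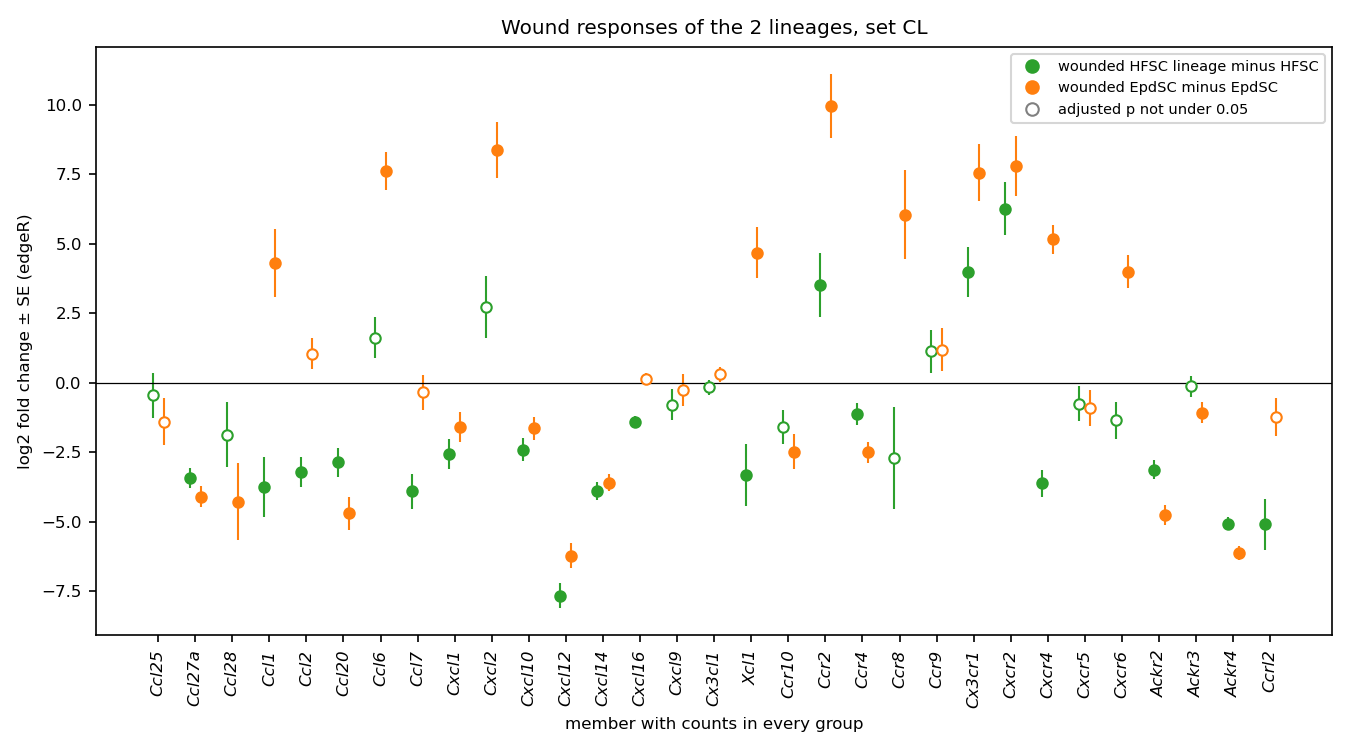
The log2 fold change ± SE (edgeR) of wounded against unwounded libraries of set CL is drawn for the 31 members with counts in every group, with the HFSC lineage in green and EpdSC in orange. Filled points passed an adjusted p under 0.05. Cxcl14, Ackr4, Cxcl12 and Ccl27a are below 0 in both lineages, whereas Ccl2, Ccl7, Cxcr4 and Xcl1 differ between them. Values of members with only a few counts in 1 group depend on the prior count of the fit.

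Wounded EpdSC of set CL carried many inflammatory ligands and leukocyte receptors that were at or near 0 in unwounded EpdSC. Ccl8, an inflammatory ligand that attracts monocytes and T cells, stood at 60.5 and 36.7 CPM in wounded EpdSC and had no count in EpdSC, which is at least 305-fold higher against a floor of 3 counts per library. Ccl22, a ligand of Ccr4 made by dendritic cells and macrophages, stood at 18.0 and 13.8 CPM against no count in EpdSC, at least 99.7-fold higher (edgeR adjusted p = 1.42e-04). Ccl22 lies at chr8:94745684-94751388 on the plus strand of GRCm38.p6. Cxcl2, an ELR ligand, stood at 31.7 and 175 CPM against 0.209 and 0.450 CPM, a rise of 8.35 ± 1.01 (edgeR adjusted p = 4.05e-04). The 2 wounded libraries differed several-fold in Cxcl2, but both were far above EpdSC. Among the receptors, Ccr1 stood at 23.4 and 54.0 CPM against no count, at least 243-fold higher. Ccr2, the receptor of Ccl2, stood at 15.3 and 44.5 CPM against 0.0419 and 0 CPM (edgeR adjusted p = 3.52e-04).

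Other called rises in wounded EpdSC covered both ligands and receptors. With no count in either EpdSC library, the bounds were at least 109-fold for Ccl3, 97.5-fold for Ccl4, 52.3-fold for Cxcl3, 43.4-fold for Ccl5 and 35.3-fold for Cxcr3. The bounds were smaller for Ccr7 (19.7-fold), Ccl17 (10.7-fold), Ccr6 (9.09-fold), Ccl11 (3.44-fold) and Ccr3 (1.99-fold). Cxcr4 rose by 5.15 ± 0.52, Cxcr6 by 3.99 ± 0.59, Xcl1 by 4.68 ± 0.92 and Cx3cr1 by 7.56 ± 1.02. Ccl6 stood at 8.02 and 14.1 CPM against 0.0419 and 0.0643 CPM, too few counts in EpdSC for a fold. Ccl1, Ccr8, Ccl9 and Cxcr2 were also called higher. Most of these receptors are carried by leukocytes: Ccr1 and Ccr2 by monocytes, Cxcr2 by neutrophils, Ccr7 by migrating dendritic cells and naive T cells, and Cxcr3 and Cxcr6 by T cells.

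Leukocyte markers moved with these rises, although the cells were sorted as lineage negative. The 4 pan leukocyte markers summed to 729 to 835 CPM in wounded EpdSC of set CL and to 2.76 to 4.40 CPM in EpdSC, and 4 of 4 were higher. The 5 antigen presenting markers summed to 6009 to 8294 CPM against 48.7 to 66.0 CPM, with 5 of 5 higher. The 5 macrophage markers found summed to 499 to 554 CPM against 2.22 to 4.43 CPM, with 5 of 5 higher. The 3 neutrophil markers found summed to 10.1 to 31.5 CPM and were all at 0 in EpdSC. T cell markers were higher for 3 of 4, at 170 to 181 CPM against 58.2 to 80.8 CPM, and fibroblast markers for 6 of 6, at 646 to 692 CPM against 2.51 to 2.85 CPM. In the wounded HFSC lineage the same lists stood at 8.36 to 8.53 CPM (pan leukocyte), 56.4 to 66.9 CPM (antigen presenting), 9.08 to 9.74 CPM (macrophage) and 0 to 0.152 CPM (neutrophil). The part of such cells in the results was not tested.

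Ccl8 was high in both wounded groups of set CL. It stood at 50.8 and 36.7 CPM in the wounded HFSC lineage and at 0 and 0.0770 CPM in HFSC (edgeR adjusted p = 9.26e-05). The wounded HFSC lineage and wounded EpdSC overlapped in Ccl8, and their difference was -0.15 ± 0.37 (edgeR adjusted p = 0.77). The pan leukocyte markers of the wounded HFSC lineage lay within the 3.82 to 12.1 CPM of unwounded HFSC, and 0 of 4 were called, while 3 of 5 macrophage markers were called higher there. The other rises called in the wounded HFSC lineage were in members at low levels. Cxcr2 stood at 6.48 and 7.62 CPM against 0 and 0.192 CPM, a rise of 6.26 ± 0.95 (edgeR adjusted p = 0.00148). Cx3cr1, the receptor of Cx3cl1, stood at 2.32 and 3.34 CPM against 0.0296 and 0.346 CPM, a rise of 3.98 ± 0.91 (edgeR adjusted p = 0.0093). The remaining 7 were Ccl4, Ccl9, Ccl11, Ccr1, Ccr2, Ccr3 and Cxcl3, all at 1.98 CPM or less in each wounded HFSC lineage library. The bases before the Ccl8 start, chr11:82114935-82115184 on the plus strand of GRCm38.p6 from RefSeq, are shown because Ccl8 rose in both lineages. None of the 3 motifs matched these letters.
Ccl8: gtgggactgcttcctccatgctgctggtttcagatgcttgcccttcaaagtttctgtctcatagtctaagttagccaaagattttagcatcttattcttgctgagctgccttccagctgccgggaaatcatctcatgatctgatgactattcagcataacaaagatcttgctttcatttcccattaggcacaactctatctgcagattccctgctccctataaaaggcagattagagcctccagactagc

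The 2 wounded groups of set CL differed for 25 of 46 members, 1 higher and 24 lower in the HFSC lineage, which is 54.3% beside 19.2% of all genes (6.8% higher and 12.4% lower). The 1 higher was Ackr4, by 0.83 ± 0.21 (edgeR adjusted p = 0.0398). Ccl22 was 0.0347 and 0.0379 CPM in the wounded HFSC lineage and 18.0 and 13.8 CPM in wounded EpdSC (edgeR adjusted p = 8.96e-04). Cxcl16, a membrane-bound ligand of Cxcr6, was 49.9 and 48.0 CPM in the wounded HFSC lineage and 169.8 and 135 CPM in wounded EpdSC, a difference of -1.64 ± 0.22 (edgeR adjusted p = 0.004). Leaving out either library of the wounded HFSC lineage left 14 members called.

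The responses of the 2 lineages were compared directly, as the wound change in the HFSC lineage minus that in EpdSC. They differed for 13 of 46 members, 2 higher and 11 lower, which is 28.3% beside 15.8% of all genes (5.31% higher and 10.5% lower). For Ccl2 the difference was -4.25 ± 0.77 (edgeR adjusted p = 0.0112): it went from 8.22 and 16.7 to 1.87 and 0.834 CPM in the HFSC lineage and from 1.09 and 1.86 to 3.58 and 2.48 CPM in EpdSC. The wound difference of Ccl2 in EpdSC alone, 1.04 ± 0.55, was not called (edgeR adjusted p = 0.137). Ccl2 lies at chr11:82035577-82037452 of GRCm38.p6. Cxcr4 fell in the HFSC lineage and rose in EpdSC, a difference of -8.77 ± 0.71 (edgeR adjusted p = 5.60e-04). Cxcl16 differed by -1.55 ± 0.31 and Ccl7 by -3.56 ± 0.87. Ackr2 and Ackr4 fell further in EpdSC than in the HFSC lineage, with differences of 1.64 ± 0.46 and 1.07 ± 0.29. The same difference was below 0 and called for 4 of 4 pan leukocyte, 5 of 5 antigen presenting, 3 of 5 macrophage, 3 of 4 T cell and 3 of 6 fibroblast markers, and their part in the result was not tested. The count was 7 without HFSC B, 3 without EpdSC A, 8 without EpdSC B, 7 and 6 when library A or B of the wounded HFSC lineage was dropped.

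The wounded EpdSC of set BK, a single library, did not show the falls of Ackr4, Cxcl14 and Ccl27a seen in set CL. Ackr4 stood at 469 CPM there against 299 and 242 CPM in EpdSC of the set, Cxcl14 at 793 CPM against 627 and 626 CPM, and Ccl27a at 229.9 CPM against 84.7 and 49.9 CPM. Ackr4, Cxcl14 and Ccl27a were each above both EpdSC libraries of the set. Only Ccl2 and Ccl7 were called, 2 of 33 members tested, which is 6.06% beside 7.97% of all genes (1.77% higher and 6.21% lower), and at an unadjusted p under 0.05 there were 14, beside 34.4% of all genes. Ccl2 stood at 11.2 CPM against 1.28 and 1.34 CPM, a rise of 3.03 ± 0.49 (edgeR adjusted p = 0.0445), and Ccl7 rose by 2.89 ± 0.64 (edgeR adjusted p = 0.0496). Without EpdSC 1 the count was 15, without EpdSC 2 it was 11, and without either HFSC library it was 4. Ccl8 stood at 2.72 CPM and Ccl22 at 0.320 CPM. The pan leukocyte markers stood at 3.36 CPM in this library, against 5.38 to 7.27 CPM in EpdSC of set BK and 729 to 835 CPM in wounded EpdSC of set CL. The immediate early and dissociation genes summed to 11355 CPM against 28390 to 33962 CPM in EpdSC of set BK, with 3 of 12 lower. Their part in the result was not tested.

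A comparison added after these values were seen set the EpdSC wound response of set BK against that of set CL, over 7 EpdSC libraries. The responses differed for 17 of 50 members, 9 higher and 8 lower in set BK, which is 34% beside 16.5% of all genes (4.96% higher and 11.6% lower). Ackr4 differed by 6.72 ± 0.50 (edgeR adjusted p = 0.0019), Ccl27a by 5.66 ± 0.61 (edgeR adjusted p = 0.00242) and Cxcl14 by 3.72 ± 0.50 (edgeR adjusted p = 0.00421). Ccl8 differed by -8.44 ± 2.04 and Cxcl2 by -6.26 ± 1.36, values that depend on the prior count because EpdSC held few or no counts. Leaving out EpdSC 1 of set BK gave 11 members and leaving out wounded EpdSC A of set CL gave 9. The gate named for the wounded cells also differs between the sets, and set and wound response cannot be told apart beyond this test.

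In the tumours, 4 of the 5 ELR ligands, Cxcl1, Cxcl2, Cxcl3 and Cxcl5, were higher than in the Tbr stem cells of the same set. The remaining one, Cxcl15, was at 0, 0 and 0.0738 CPM in the tumours and 0 and 0 CPM in the Tbr stem cells. The 3 high gate tumour libraries, of 3 genotypes, were set against Tbr HFSC and Tbr EpdSC, so genotype and lineage enter the spread. Cxcl1 stood at 469.6, 370.4 and 252 CPM in the HRas, HRas TbrKO and TbrKO tumours of the high gate and at 17.5 and 22.2 CPM in Tbr HFSC and Tbr EpdSC, a rise of 4.21 ± 0.37 (edgeR adjusted p = 0.00277). Cxcl2 stood at 143, 246 and 98.5 CPM against 3.05 and 1.12 CPM, a rise of 6.32 ± 1.45 (edgeR adjusted p = 0.0258). Cxcl5 stood at 40.4, 32.7 and 10.9 CPM against 0 and 0.241 CPM, a rise of 7.63 ± 1.03 (edgeR adjusted p = 0.00657). All 3 are ELR ligands and neutrophil attractants, and no tumour library overlapped a stem cell library. Cxcl3 stood at 61.7, 125 and 11.4 CPM against 0 and 0.0402 CPM (edgeR adjusted p = 0.0235). In both wounded groups of set CL, where Cxcl1 had fallen, it stood at 1.32 and 2.35 CPM and 5.73 and 2.96 CPM.

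The 250 bases before the starts of Cxcl1, Cxcl2 and Cxcl3, which lie close together on chromosome 5, are shown because these ELR ligands rose together and share a kappaB match. They are chr5:90890995-90891244, chr5:90903649-90903898 and chr5:90785851-90786100 of GRCm38.p6, all on the plus strand and from RefSeq. In each, 2 overlapping kappaB matches form 1 run, in capitals, that begins 71 bases before the start in Cxcl1, 97 in Cxcl2 and 73 in Cxcl3. Over the same 250 bases, a kappaB match was found in 12 of the 42 members with a promoter entry (28.6%) and in 9.2% of the 16780 genes with one. The AP-1 pattern was in 5 of 42 members (11.9%) beside 7.36% of genes, and the interferon response-like pattern in 2 of 42 (4.76%) beside 3.38%. Of 15 NF-kB pathway genes, 0 were called higher and 0 lower in the high gate tumours against the Tbr stem cells, beside 21.5% of all genes called. The part of NF-kB in the rise of these ligands was not tested.
Cxcl1: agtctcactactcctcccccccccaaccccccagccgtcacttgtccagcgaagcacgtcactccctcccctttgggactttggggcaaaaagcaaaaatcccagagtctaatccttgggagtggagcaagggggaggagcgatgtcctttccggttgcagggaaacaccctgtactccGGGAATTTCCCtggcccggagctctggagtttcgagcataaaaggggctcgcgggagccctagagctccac
Cxcl2: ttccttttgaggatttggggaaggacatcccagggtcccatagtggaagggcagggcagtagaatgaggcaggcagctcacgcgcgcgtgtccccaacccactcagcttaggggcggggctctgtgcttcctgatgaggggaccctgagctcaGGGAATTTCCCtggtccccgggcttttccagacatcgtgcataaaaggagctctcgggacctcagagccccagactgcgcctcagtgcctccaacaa
Cxcl3: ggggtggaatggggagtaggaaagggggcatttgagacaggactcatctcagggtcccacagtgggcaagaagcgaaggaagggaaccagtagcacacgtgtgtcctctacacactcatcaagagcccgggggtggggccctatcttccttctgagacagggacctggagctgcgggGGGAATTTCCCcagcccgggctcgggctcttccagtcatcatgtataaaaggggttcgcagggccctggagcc

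The 4 tumour comparisons likewise share libraries. Altogether 24 of 52 members differed between the high gate tumours and the Tbr stem cells, 19 higher and 5 lower, which is 46.2% beside 21.5% of all genes (11.9% higher and 9.56% lower). The median difference was 2.93, or 2.50 with members at no count in a group set at their bound, beside 0.12 for all genes. As in set CL, members enter the tumour comparisons through the group in which they are high. The shares and medians therefore describe the tested members and not the family. The 5 lower were the resting-skin members Ackr4 (-7.38 ± 0.77), Ackr2 (-5.86, edgeR adjusted p = 0.019), Ccl27a (-4.89 ± 0.37), Cxcl14 (-4.47 ± 0.79) and Ccl28 (-3.43 ± 0.96). Ackr4 stood at 0.770, 0.715 and 3.77 CPM in the high gate tumours and 324 and 255 CPM in the Tbr stem cells. Ccl3, a ligand of Ccr1, stood at 18.1, 49.1 and 4.80 CPM against 0 and 0.0402 CPM (edgeR adjusted p = 0.0403), and Ccl8 rose by 6.58 ± 0.87. Ccr2, with no count in the Tbr stem cells, was at least 38.0-fold higher, and Ccl12 and Ccl5 at least 7.35-fold and 5.67-fold higher. Ccl2 rose by 2.81 ± 0.67 and Ccl7 by 2.11 ± 0.41. Also higher were Cx3cr1, Ackr1, Ccr7, Cxcl13, Ccl4, Ccl9 and Ccl11. The count was 9 without the HRas high library or without Tbr EpdSC, and 13 without the HRas TbrKO high library or without Tbr HFSC. The summed pan leukocyte markers were 25.1 to 80.5 CPM in the high gate tumours and 4.38 to 13.8 CPM in the Tbr stem cells, with 1 of 4 called higher. The macrophage markers were 83.0 to 276 CPM against 2.57 to 7.60 CPM, with 5 of 5 higher. Summed T cell markers went the other way, at 19.5 to 35.4 CPM against 46.3 and 143 CPM, with 0 of 4 called. Of the 5 antigen presenting, 2 neutrophil and 4 melanocyte markers tested, 0 were called. Fibroblast markers were 888 to 2136 CPM against 8.15 to 36.3 CPM, with 6 of 6 higher, and endothelial markers 47.0 to 160.0 CPM against 1.16 to 1.37 CPM, with 4 of 4 higher. Their part in the result was not tested.

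**Figure D3:**
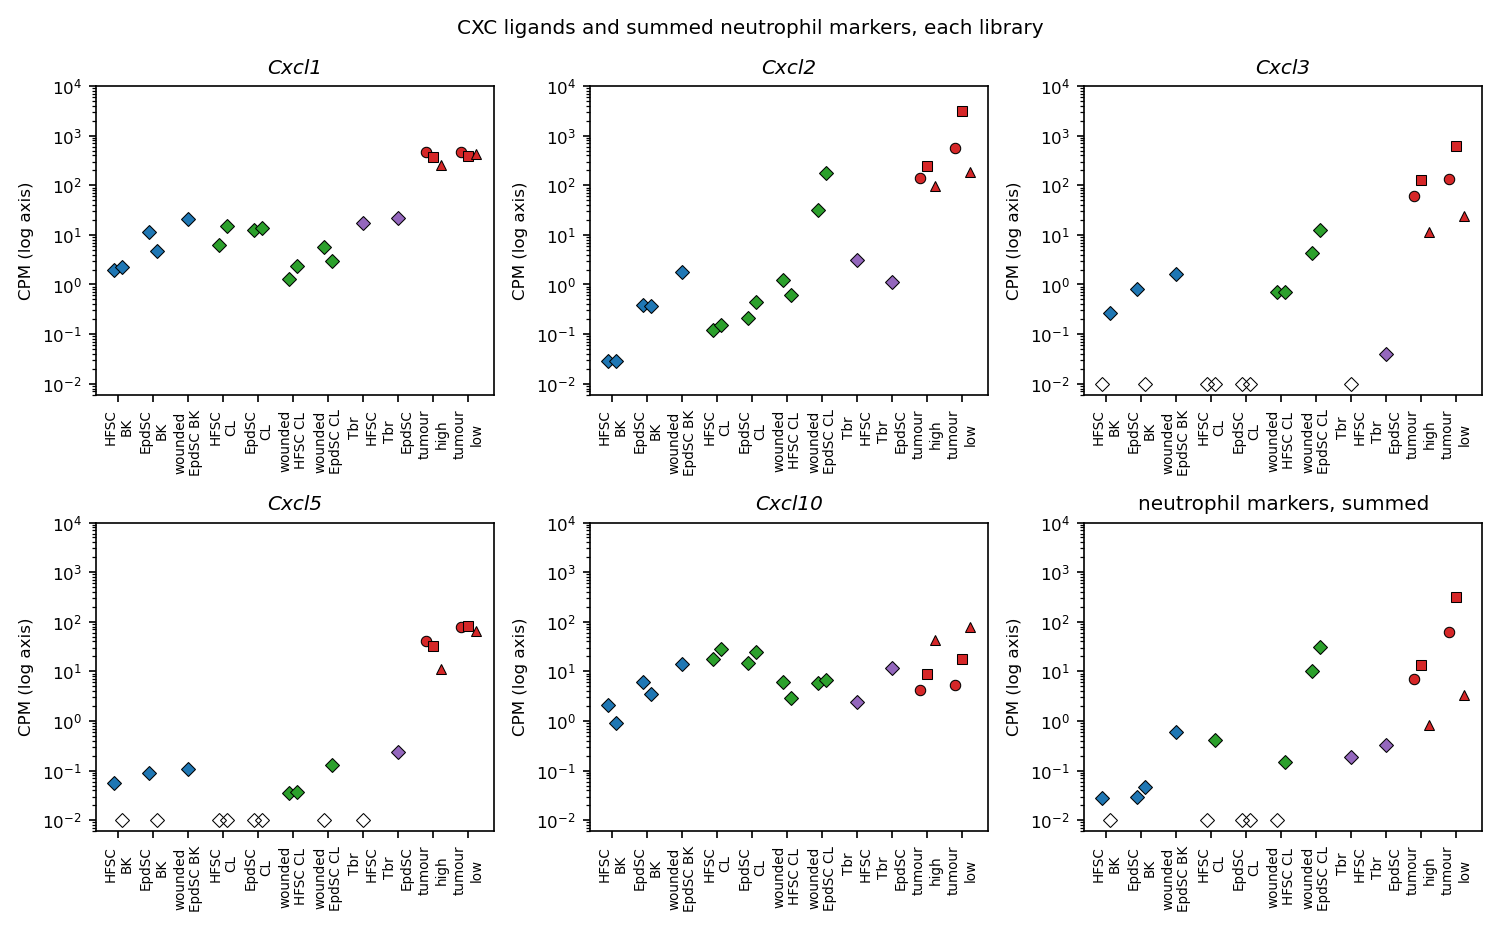
CPM on a log axis is drawn for Cxcl1, Cxcl2, Cxcl3, Cxcl5 and Cxcl10, with 1 point per library, and for the summed neutrophil markers. Open points at the bottom mark no count, and in the tumours circles are HRas, squares HRas TbrKO and triangles TbrKO. Cxcl1 is of like level in the 6 tumour libraries, Cxcl2 and Cxcl3 are highest in the HRas TbrKO low gate library, where the neutrophil markers are highest too, and Cxcl10 is highest in the 2 TbrKO libraries.

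Between the integrin alpha 6 gates of the tumours, no member was higher in the high gate and 11 of 51 were lower, with genotype as a block. That is 21.6% of the members beside 3.15% of all genes (0.152% higher and 3% lower). Among them were the ligands Ccl3 (-3.02 ± 0.41), Ccl6 (-2.67 ± 0.29), Ccl4 (-2.62 ± 0.22), Ccl7 (-2.04 ± 0.13), Ccl8 (-1.95 ± 0.31) and Cxcl12 (-1.97 ± 0.32) and the receptors Cxcr1 (-4.32 ± 0.56), Ccr1 (-2.87 ± 0.22), Cxcr6 (-2.54 ± 0.39) and Cxcr4 (-1.86 ± 0.28). Cxcl1 was 469.6, 370.4 and 252 CPM in the high gate and 464, 380.0 and 436 CPM in the low gate of HRas, HRas TbrKO and TbrKO, and was not called (edgeR adjusted p = 0.537). Several marker lists moved the same way: 4 of 4 pan leukocyte and 5 of 5 antigen presenting markers were lower in the high gate, and 6 of 6 fibroblast markers. Of those tested, 1 of 2 neutrophil and 1 of 2 T cell markers were lower. None of 5 macrophage, 4 endothelial and 4 melanocyte markers was called, with median differences of -1.65, -0.60 and -1.43. The part of such cells in the result was not tested. The count rests on single libraries, since it was 0 without either HRas TbrKO library, 5 without either HRas library, 37 without the TbrKO high library and 36 without the TbrKO low library.

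The HRas TbrKO low gate library stood apart in several members. It held the highest level of 18 of the 56 members. The share of all genes highest in this library was not counted, so the 18 do not show that members differ from other genes. Cxcl2 stood at 143, 553, 246 and 3080.0 CPM in HRas high, HRas low, HRas TbrKO high and HRas TbrKO low. Ccl3 stood at 18.1, 113, 49.1 and 904 CPM and Cxcl3 at 61.7, 134, 125 and 628 CPM in the same order. The last library is the highest for all 3 genes. The neutrophil markers were 7.09, 63.4, 13.4 and 313 CPM in the same order, and the pan leukocyte markers 70.5, 222, 80.5 and 474 CPM. Their part in the result was not tested.

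TbrKO tumours, which lack the HRas label, differed from the HRas and HRas TbrKO tumours for 29 of 51 members, 8 higher and 21 lower, with the gate as a block. That is 56.9% beside 41.8% of all genes (21.2% higher and 20.7% lower), and the median difference was -0.998 beside -0.03 for all genes. Cxcl10 stood at 42.5 and 78.3 CPM in the 2 TbrKO libraries and 4.22, 5.25, 8.83 and 17.8 CPM in the 4 HRas-bearing libraries, a rise of 2.89 ± 0.19 (edgeR adjusted p = 0.00106). The groups did not overlap in Cxcl10. Cxcl9 rose by 2.16 ± 0.41, but its groups overlapped, at 34.5 and 26.5 CPM against 1.41, 4.58, 12.4 and 29.1 CPM. Cxcl17 rose by 4.90 ± 0.52, from 0.0669, 0.135, 0.0357 and 0.129 CPM to 0.738 and 6.01 CPM. Cxcl16 (1.04 ± 0.17), Cx3cl1 (1.11 ± 0.20), Ccl2 (1.14 ± 0.29), Cxcl12 (1.44 ± 0.32) and Ccl20 (1.52 ± 0.44) were also higher. Ccl2 and Cxcl12 likewise overlapped between the groups. Among the members lower in TbrKO were the leukocyte receptors Cxcr2 (-5.22 ± 0.46) and Ccr1 (-4.61 ± 0.28). Cxcr1 and Cxcr3 were called lower too, with 0 and 2 counts of Cxcr1 and 2 and 6 of Cxcr3 in the 2 TbrKO libraries, so the size of their differences depends on the prior count of the fit. Ccl22 fell by 4.53 ± 0.68: it was 0.185 and 0.302 CPM in the TbrKO libraries and 1.57, 18.6, 1.18 and 10.3 CPM in the others. Cxcl3 fell by 3.30 ± 0.34 and Cxcl2 differed by -1.86 ± 0.58 (edgeR adjusted p = 0.0507). The count was 19 without the HRas high library and 10 with no term for the gate. The neutrophil markers were 0.849 and 3.36 CPM in the TbrKO libraries, below the 7.09 to 313 CPM of the others, and 4 of 4 pan leukocyte markers were lower. Their part in the result was not tested.

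The bases before the Cxcl10 start, chr5:92348890-92349139 on the minus strand of GRCm38.p6 from RefSeq, are shown because Cxcl10 rose in the TbrKO tumours and fell in both wounded groups of set CL. Capitals mark an interferon response-like match 213 bases before the start, kappaB matches 159 and 104 bases before it, the second being a run of 2 overlapping matches, and an AP-1 match 74 bases before it.
Cxcl10: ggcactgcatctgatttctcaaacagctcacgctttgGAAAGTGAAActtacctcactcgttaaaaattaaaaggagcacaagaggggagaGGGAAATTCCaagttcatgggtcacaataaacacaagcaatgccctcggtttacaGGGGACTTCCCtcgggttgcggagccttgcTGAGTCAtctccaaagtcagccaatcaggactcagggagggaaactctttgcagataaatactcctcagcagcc

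HRas TbrKO tumours were compared with HRas tumours over both gates. No member of 51 was called by edgeR, as for 0 of all 15113 genes (0%), while 18 members passed 0.05 before adjustment, beside 11.3% of all genes, and 12 of 50 passed in DESeq2, beside 2.79%. Without the TbrKO high library 19 of 55 were called, beside 6.75% of all genes, and without the TbrKO low library 17 of 55, beside 6.06%. Ccr3, a receptor of eosinophils, was 1.87, 2.93, 10.9 and 19.5 CPM in HRas high, HRas low, HRas TbrKO high and HRas TbrKO low, a difference of 2.65 ± 0.28 (edgeR adjusted p = 0.126). Cxcl9 was 1.41, 4.58, 12.4 and 29.1 CPM in the same order, a difference of 2.84 ± 0.51 (edgeR adjusted p = 0.223). Ccr3 and Cxcl9 were chosen after their values were seen.

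Open chromatin near the members' starts was read from 4 pooled peak lists, 1 for each of HFSC, EpdSC, wounded skin stem cells and tumour stem cells, from female mice of mixed CD1 and B6 background. HFSC and EpdSC came from back skin at postnatal day 50, wound cells from full and partial thickness wounds (integrin alpha 6 and Sca1 positive), and tumour cells from HRas grafts (integrin alpha 6 and beta 1 high, GFP positive). With 1 list per population there is no replicate check. The fold values are the authors' peak enrichments. The lists hold 55435, 25742, 56865 and 54201 peaks, from 26825550, 13963471, 11140895 and 29579794 fragments, and the part of depth in the absence of a peak was not tested. A peak lay within 1 kb of the start of 10, 8, 12 and 10 of the 42 members with an entry, which is 23.8%, 19.0%, 28.6% and 23.8%, beside 59.2%, 44.1%, 57.3% and 54.7% of 16780 genes. Within 20 kb the shares were closer, at 66.7%, 59.5%, 81.0% and 73.8% of the members beside 74.9%, 60.8%, 75.9% and 75.3% of the genes, and for the wound list the members' share was the higher one.

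Ccl8 had a peak in the wound list, of 7.88-fold enrichment with its summit 1075 bases after the start, and in the tumour list, of 5.80-fold and 1080 bases after the start. No peak lay within 20 kb of its start in the HFSC and EpdSC lists. Ccl8 counts were at or near 0 in HFSC and EpdSC and high in wounded cells of set CL and in tumours. Cxcl14 had a start peak in the HFSC, wound and tumour lists, of 7.09-, 7.42- and 4.41-fold, and none within 20 kb in the EpdSC list. Its level, however, was high in both HFSC and EpdSC and low in the wounded cells of set CL and in tumours. The nearest peaks of Ackr4 lay 2516, 2446 and 2566 bases after its start in the HFSC, EpdSC and wound lists, of 6.81-, 4.41- and 4.39-fold, and none within 20 kb in the tumour list. Cxcl3 had peaks near its start in the EpdSC, wound and tumour lists, of 4.50-, 6.69- and 8.99-fold, and none within 20 kb in the HFSC list. Cxcl1 had a start peak in all 4 lists, of 6.55-, 6.42-, 5.44- and 7.11-fold, and so had Cxcl10, of 6.75-, 6.02-, 3.99- and 4.28-fold.

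**Figure D4:**
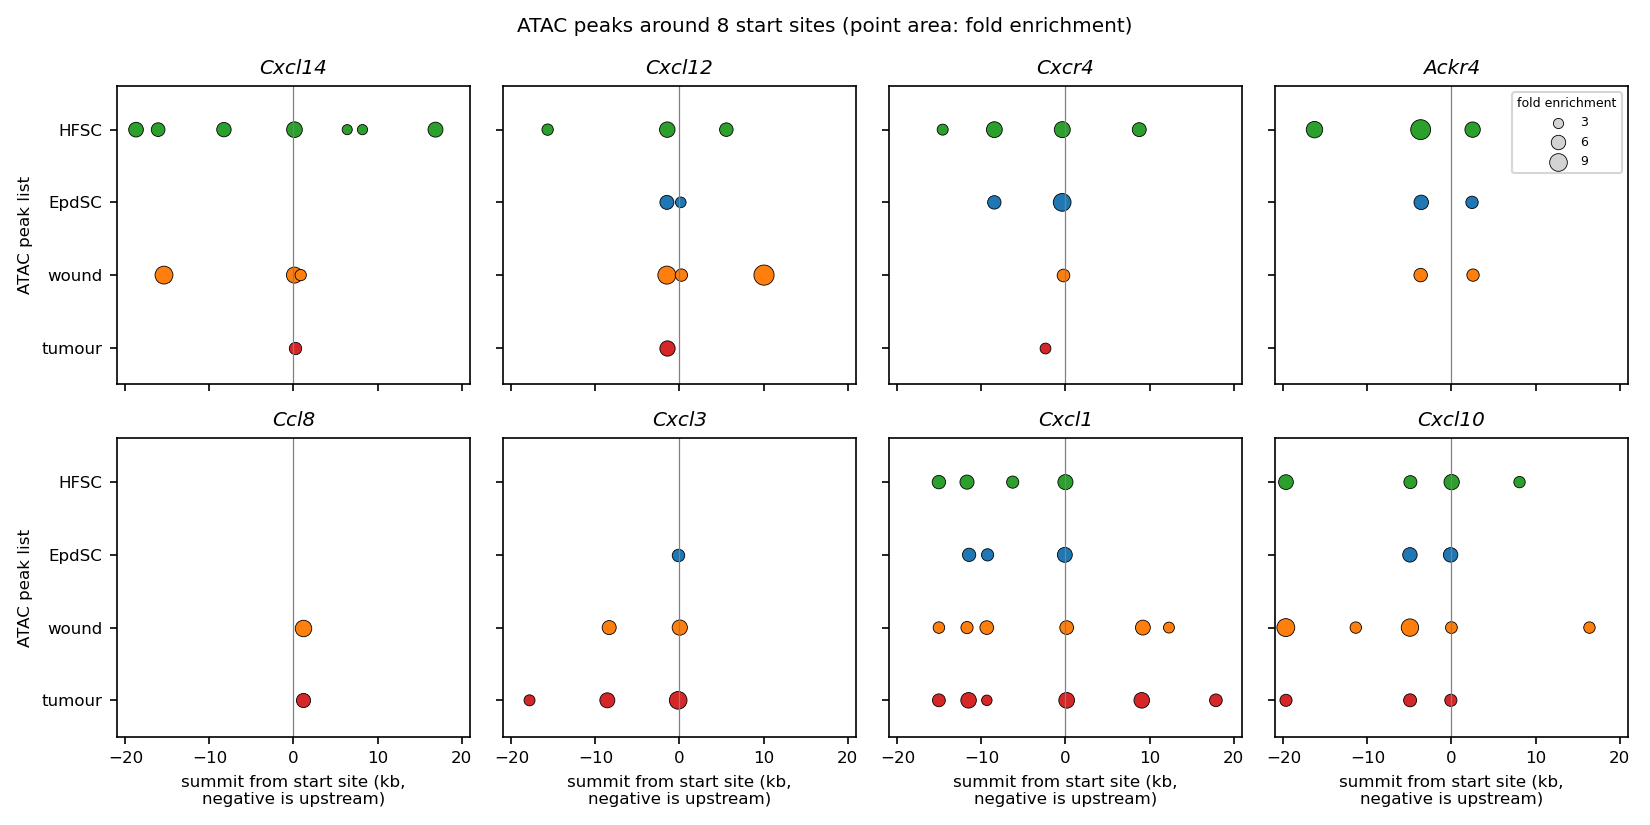
Each panel is 1 member, the horizontal axis is the distance of a peak summit from the start site in kb (negative is upstream), and each line is 1 of the 4 peak lists. Point area gives the authors' fold enrichment. Ccl8 has points only in the wound and tumour lists, and Ackr4 has none in the tumour list.

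Other genes of the pathway were counted from lists, with no test of a list. Of all genes, 46.1% changed in the wounded HFSC lineage (21.4% higher and 24.7% lower). In wounded EpdSC of set CL 58.4% changed (30.2% higher and 28.2% lower). Between TbrKO and HRas-bearing tumours 41.8% changed (21.2% higher and 20.7% lower). Several of the list counts lie near these shares. Of 15 NF-kB pathway genes, 1 was higher and 7 lower in the wounded HFSC lineage, and 1 higher and 9 lower in wounded EpdSC of set CL. In TbrKO tumours 10 were higher and none lower than in the HRas-bearing tumours, among them Tnfaip3 (2.09), Rel (1.87), Bcl3 (1.62) and Nfkbie (1.44). Of 20 inducers and their receptors, 8 were higher and 7 lower in wounded EpdSC, with Il1b at 7.32 and Il6 at -5.48, and 5 higher and 4 lower in the wounded HFSC lineage. In TbrKO tumours 7 were higher and 2 lower, with Irf1 at 2.45, Il1a at -2.89 and Il1b at -2.74. Of 15 genes that signal downstream of the receptors, 9 were higher and 2 lower in wounded EpdSC, and 1 higher and 7 lower in TbrKO tumours. The immediate early and dissociation genes were higher in TbrKO tumours for 9 of 12, with sums of 19612 and 12983 CPM against 5108 to 8010 CPM, and their part in the TbrKO results was not tested.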

How the data were processed

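Raw gene counts of 21 RNA libraries (single reads of 51 cycles) were deposited by the authors. The ATAC peak lists were called with MACS2 2.1.1.20160309 per the file headers, on pooled samples; they hold pileup signal, fold enrichment and −log10 p and q values, as deposited by the authors. STAR, Bowtie and Picard are named in the submitters' processing notes. Counts were tested with edgeR 4.0.16 (TMM, filterByExpr, quasi-likelihood F test, adjusted p under 0.05) in R 4.3.3, within each set, with DESeq2 1.42.0 among the alternatives. The 2 comparisons across sets were added after values were seen. The script was tested on simulated counts with 200 known changes. At 8-fold it recovered 85% for wounded EpdSC of set CL and 81% for HFSC against EpdSC of set BK. It recovered 92% for the gates and 48% for tumours against Tbr stem cells. False calls at 8-fold were 3.41% to 7.07%. At 2-fold it recovered 24.5% for the gates, with 14% false calls. It recovered 0% at 2-fold for wounded EpdSC of set CL and for tumours against Tbr stem cells. A member not called may therefore still have changed. Named members were the markers Ccl2, Cxcl2, Ccl22 and Ackr4, up to 12 called members per comparison by size, the 8 with the highest mean CPM, and up to 4 called genes per list. Other called members are listed by name after their values were seen. Members, lists and tests were chosen with earlier results of these data known. For 1 member, counted in the totals, values are not reported here. Replicates differed by more than counting noise (chi-square per degree of freedom from 15 to 279.7), and none was merged. Totals ranged from 14216472 to 36425082 counts.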

Additional observations from a re-analysis of the deposited data

Results flagged for a closer look

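Of 21 members checked among the 4 HRas-bearing tumour libraries, 3 had the HRas TbrKO low gate library farther from the rest than the 95% critical value of Dixon's test allows: Ccl3 at 904 CPM, Cxcl2 at 3080.0 CPM and Cxcl3 at 628 CPM. Chance flags about 1 in 20 groups of replicates. These 4 libraries differ in genotype and gate and are not replicates, so that rate does not apply and the flag is only descriptive. The neutrophil markers summed to 313 CPM in the HRas TbrKO low gate library, and their part was not tested.

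The wound response of the HFSC lineage minus that of EpdSC in set CL passed its test for 13 members, among them the following. It was 1.64 for Ackr2 and 1.07 for Ackr4. It was -1.55 for Cxcl16, -3.56 for Ccl7, -4.25 for Ccl2, -5.35 for Cxcr6, -5.99 for Ccl6 and -7.99 for Xcl1. It was -8.07 for Ccl1, -8.75 for Ccr8, -8.77 for Cxcr4 and -10.33 for Ccl5. Where a group had few or no counts, as for Ccl5, the value depends on the prior count of the fit.

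The EpdSC wound response of set BK minus that of set CL passed its test for 17 members. It was higher in set BK by 7.34 for Ccl20, 7.13 for Cxcl12, 6.72 for Ackr4, 5.66 for Ccl27a, 3.72 for Cxcl14, 3.26 for Ackr2, 2.95 for Cxcl10, 2.72 for Cxcl1 and 2.50 for Ccrl2. It was -1.99 for Cx3cl1, -4.88 for Cxcr4, -5.04 for Cxcr2, -6.26 for Cxcl2, -6.77 for Xcl1, -7.20 for Ccl6, -8.44 for Ccl8 and -10.52 for Ccl22. EpdSC of set CL held no count of Ccl8 and Ccl22, 1 count of Ccl6 in each library and few of Cxcl2, Cxcr2, Cxcr4 and Xcl1, so these values depend on the prior count of the fit. The response of set BK rests on 1 wounded library.

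The HFSC against EpdSC difference of set BK minus that of set CL passed its test for 5 members: 2.56 for Cxcl14, 2.42 for Cxcl12, -3.08 for Ackr2, -3.91 for Ccl2 and -4.68 for Ccl20. What separates the 2 sets is not given in the sources used here.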

How the results depend on the processing

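Counts of called members moved by over 1.5 times in these settings. With DESeq2 they were 23 for the difference of wound responses (13 in edgeR), 7 for wounded EpdSC of set BK (2), 29 for the integrin gates (11), 12 for HRas TbrKO against HRas (0) and 26 for the EpdSC wound response of set BK against set CL (17). With DESeq2's size factors in edgeR they were 1 for wounded EpdSC of set BK and 6 for the gates. With no filter on low counts they were 6 and 18. Fitting only the 2 groups gave 8 for HFSC against EpdSC of set CL (5). Without the genotype term the gates gave 0, and without the gate term TbrKO gave 10 (29). The causes were not tested. Only HRas TbrKO against HRas has shares of all genes beside counts from alternative fits. The other counts of called members in such fits, here and in the text above, stand without that share. They show how far the count of members moved, not whether members moved more than other genes. Leaving out 1 library gave 1 to 6 for HFSC against EpdSC of set CL, 6 to 12 for set BK, 20 to 26 for the wounded HFSC lineage, 30 to 39 for wounded EpdSC of set CL, 14 to 24 between the wounded groups, 3 to 17 for the difference of wound responses, 4 to 15 for wounded EpdSC of set BK, 0 to 37 for the gates, 19 to 35 for TbrKO, 0 to 19 for HRas TbrKO against HRas, 9 to 31 for tumours against Tbr stem cells, 9 to 18 for the EpdSC wound response across sets and 0 to 6 for HFSC against EpdSC across sets. Members with a peak numbered 18 (HFSC), 20 (wound) and 18 (tumour) within 5 kb, and 28, 25, 34 and 31 within 20 kb of the start, with EpdSC the second of these. Within 5 kb the members' shares, 42.9%, 26.2%, 47.6% and 42.9%, stayed below the 65.1%, 48.9%, 64.8% and 62.1% of all genes, but within 20 kb the wound list's 81.0% was above the 75.9% of all genes. Cxcl14 in TbrKO against the other tumours was -1.56 without the TbrKO high library and reversed to 1.03 without the TbrKO low library.

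The labels do not say that equal letters or numbers pair libraries, and deviations of same-labelled libraries correlated from -0.41 to 0.72 in set CL and at -0.31 in set BK. A fit with the replicate block called 7 members for HFSC against EpdSC, 25 for the wounded HFSC lineage, 37 for wounded EpdSC, 23 for one wounded group against the other, 11 when the 2 responses were compared (all in set CL), and 12 for HFSC against EpdSC in set BK, all within 1.5 times of the unblocked counts. Of 2493 alternative values for 216 results on named members, 2153 kept direction and side of the threshold, 68 came to pass it, 271 no longer passed it, 233 of them from leaving out 1 library, and 1 reversed.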
